A study of Mus musculus with 16 samples.

Results

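Bulk RNA sequencing was compared between sorted mouse pancreatic cancer cells that carried the green signal of a WNT reporter and sorted cells that lacked it. Libraries were pooled by the green signal alone, which set the 8 libraries of the gates titled GFP and Dpos against the 8 of the gates titled Dneg and mScarlet, and so used 16 of the 16 libraries of the series. The 4 gates are called here GFP (green only), DP (green and mScarlet), DN (negative for both) and mScarlet (mScarlet only), with 4 libraries each, numbered 1 to 4. All of them came from the same engineered line, KPC 7TCF-eGFP/Porcn-DMA, a pancreatic ductal adenocarcinoma (PDAC) line of the KPC mouse model. The cells formed orthotopic tumours in mice, from which cancer cells were sorted by fluorescence into the 4 gates, with 4 mice per group. The sources used here do not give the strain, age and immune status of the hosts, the marker by which cancer cells were told from host cells, the make-up of Porcn-DMA or whether the line is 1 clone. The labels do not say in words what mScarlet reports, and eGFP and mScarlet transcripts were not analysed here, so the gates rest on the labels.

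7TCF-eGFP places enhanced green fluorescent protein under binding sites for TCF, the DNA-binding partner of beta-catenin. When a WNT ligand occupies Frizzled and LRP receptors, beta-catenin escapes degradation, enters the nucleus and switches on TCF target genes, many of which (Axin2, Nkd1, Notum, Rnf43) restrain the same pathway. WNT ligands need the acyltransferase Porcn and the carrier Wls to leave the cell that makes them. In the pancreas the pathway is known for roles in organ development and, in PDAC, for supporting subsets of tumour cells.

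Each library held 80647185 to 104273669 counts, and 15476 to 17805 genes had at least 1 count. Levels are given as CPM, read counts scaled to a common library total, adjusted between libraries by the trimmed mean of M-values (TMM) and not divided by gene length, so they are compared between libraries and not between genes. The keratins that mark ductal tumour cells were high in every library, at 4958 to 12740.0 CPM for Krt8 and 5768 to 16846 for Krt19. Epcam, an epithelial adhesion gene, was near 0, at no more than 0.474 CPM outside GFP library 4, which had 29.0. Cdh1, another epithelial adhesion gene, was at 308 to 1446 CPM. Genes of other cells were present to differing degrees. GFP library 1 had the highest summed level of macrophage markers (38909.9 CPM, against 3356 to 11825 in DP and 1212 to 5422 in DN) and of erythroid markers (4723 CPM). GFP library 4 had the highest summed level of fibroblast (21070.2 CPM) and acinar markers (35612 CPM).

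GFP-positive libraries had higher levels of single genes such as Igf1, Pltp, Lpl, Il6 and Apoe, together with higher summed levels of macrophage markers, and few genes were lower. In a fit with GFP status, mScarlet status and library number as additive terms, 93 of 15963 tested genes (0.583%) passed an adjusted p of 0.05 for GFP status, 85 of them higher (0.532%) and 8 lower (0.0501%) in GFP-positive libraries. All adjusted p-values are from edgeR (quasi-likelihood, Benjamini-Hochberg) unless another tool is named. Each SE was worked back from the same test, as the absolute log2 fold change divided by the square root of the F statistic. The 85 higher genes had a median log2 fold change of 2.74 (0.53 to 7.06) and the 8 lower genes one of -0.62 (-8.92 to -0.32), while the median over all tested genes was -0.01 and 48% of them had a positive value. Without the library number as a block the same fit called 0 genes, with 1477 at an unadjusted p under 0.05, DESeq2 with the block called 783 and limma voom 462. The numbers pair the libraries, since all 24 pairs of libraries with the same number deviated together from their gate means, with correlations of 0.11 to 0.71.

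The count also moved with single libraries. It was 27, 25, 43 and 34 without DN 1, 2, 3 and 4, it was 61, 61 and 152 without mScarlet 2, 3 and 4, it was 54, 40, 53 and 210 without GFP 1, 2, 3 and 4, and it was 59, 59, 42 and 42 without DP 1, 2, 3 and 4. Without GFP 1 and 4 together it was 135, and 69 of the 93 genes were still called, 66 higher and 3 lower. All 85 higher genes had a positive log2 fold change in every one of the 25 alternative fits that tested them. The same libraries chose these genes, so their kept sign describes them and tests nothing.

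**Figure D1:**
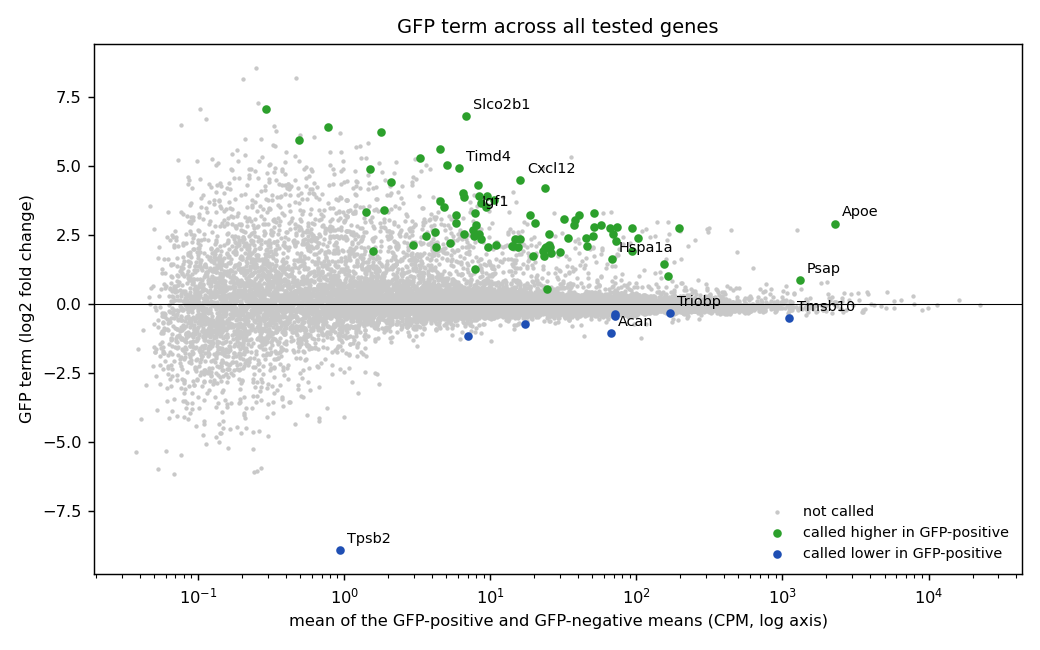
GFP term of the additive fit (log2 fold change, GFP-positive over GFP-negative) against the mean level of each tested gene (CPM, log axis), with 1 point per gene and called genes coloured. The 85 genes called higher lie between 0.53 and 7.06, at a median of 2.74, while 7 of the 8 called lower lie close to 0 and Tpsb2 lies at -8.92.

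The 5 genes named for the smallest adjusted p were Igf1, Pltp, Ccl7, Rab3il1 and Slco2b1. Igf1 encodes a growth factor secreted by fibroblasts and macrophages (chromosome 10, 87858265 to 87937047 in GRCm38). Its level in GFP libraries 1 to 4 was 24.8, 7.25, 4.42 and 53.9 CPM and in the DN libraries of the same numbers 2.29, 0.389, 0.586 and 5.92 CPM. In DP libraries 1 to 4 it was at 7.13, 3.57, 1.63 and 10.6 CPM, and in the mScarlet libraries at 0.259, 0.531, 0.133 and 1.97 CPM. Every GFP-positive library was above the GFP-negative library of its number, although DN 4 exceeded DP 2 and 3 and GFP 3 (log2 fold change 3.30, SE 0.33, adjusted p = 0.0015). In such bulk samples, fewer cells of a type and less RNA per cell cannot be told apart.

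Pltp, which moves phospholipids between lipoproteins (chromosome 2, 164839518 to 164857708), behaved alike. Its level was 388, 46.9, 79.4 and 171 CPM in GFP libraries 1 to 4 and 29.0, 5.56, 6.02 and 15.8 CPM in DN. It was 65.7, 15.0, 40.3 and 23.4 CPM in DP and 10.8, 3.77, 5.89 and 10.2 CPM in mScarlet. The groups overlapped only through DN 1 and 4 against DP 2 and 4 (log2 fold change 2.86, SE 0.30, adjusted p = 0.0015). Reads of Pltp and of the overlapping gene Ctsa, a lysosomal protease, cannot be told apart where strand is not stated, and Ctsa itself was at 289 to 1135 CPM. Ccl7, a chemokine for monocytes, had a log2 fold change of 3.22 (SE 0.36, adjusted p = 0.0024). Rab3il1, an exchange factor for Rab proteins, had one of 2.09, and Slco2b1, an organic anion transporter, one of 6.81 (adjusted p = 0.0024 for both). Slco2b1 was at 0.79 to 67.7 CPM in the GFP-positive libraries and at 0 to 0.946 CPM in the GFP-negative ones. Igf1 and these 4 genes, Pltp, Ccl7, Rab3il1 and Slco2b1, were called in every fit that left out 1 library.

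**Figure D2:**
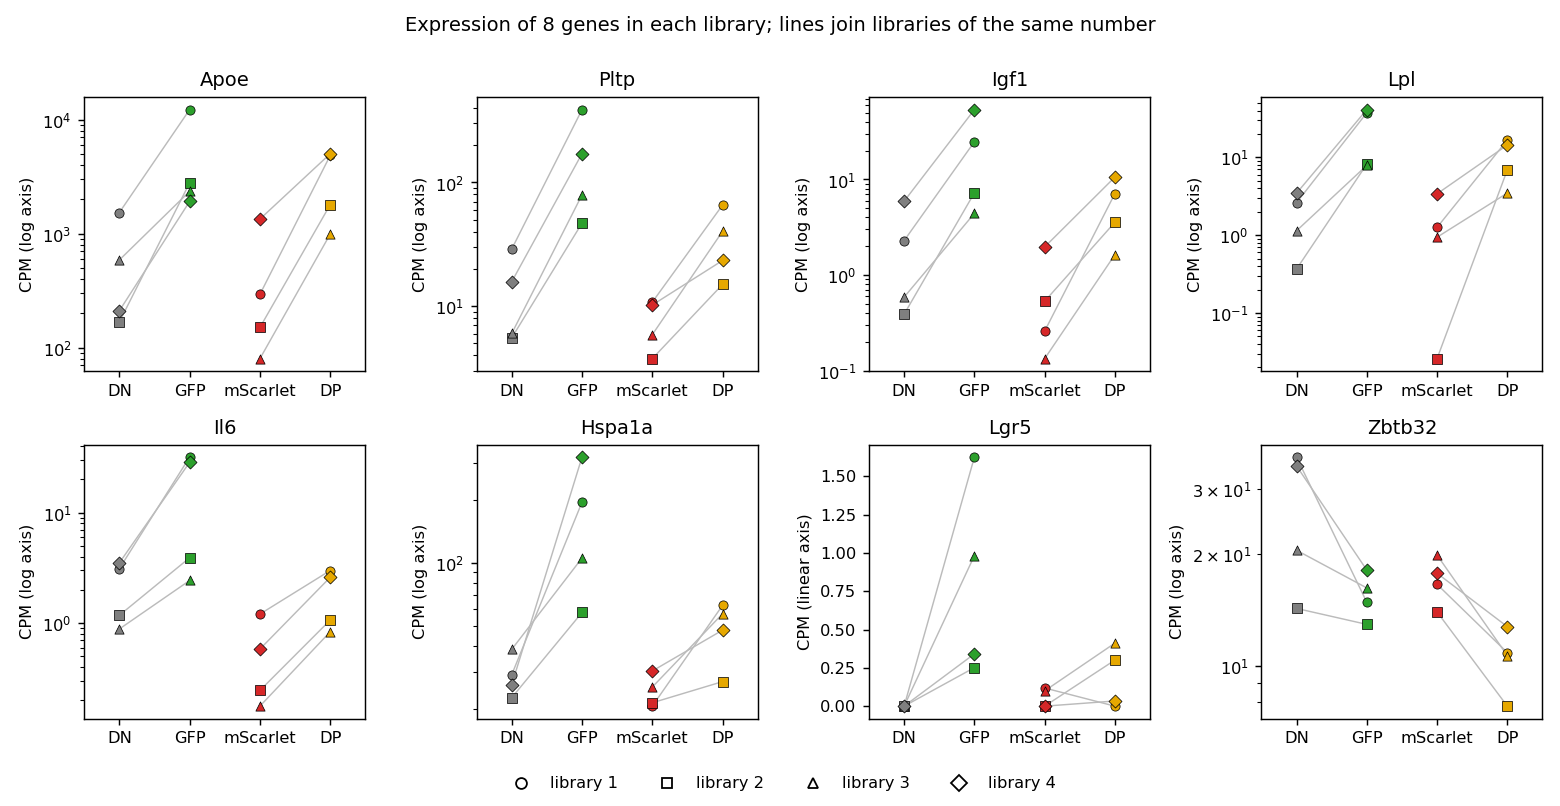
Level of 8 genes in each library (CPM, log axes except Lgr5, which has a linear axis), by gate, with lines joining the GFP-negative and GFP-positive library of the same number. For 6 of the genes every line rises, for Zbtb32 every line falls, and for Lgr5 7 of 8 lines rise from counts at or near 0.

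Genes of lipid handling included several called ones. Of 19 tested genes of lipid efflux and transport, 14 had a positive log2 fold change and 6 were called higher, with a median of 2.03. edgeR called 6 without GFP 1 and 4 and 0 without the library number, and DESeq2 and limma voom called 8 each. Apoe, the lipoprotein component that carries lipid out of macrophages, was at 12301, 2798, 2359 and 1920.0 CPM in GFP libraries 1 to 4, and at 1535, 168, 588 and 210.5 CPM in DN. In DP it was at 4863, 1796, 990.4 and 5035 CPM, and in mScarlet at 293, 150.1, 79.8 and 1343 CPM. DN 1 and mScarlet 4 exceeded the lowest GFP-positive library, DP 3, and the other GFP-negative libraries did not (log2 fold change 2.92, SE 0.53, adjusted p = 0.0288; chromosome 7, 19696244 to 19701310). The mean difference over the 8 pairs was 3.17 ± 0.84 on the log2(CPM + 1) scale (SD, n = 8), and an exact two-sided permutation test over all sign changes gave p = 0.0078, the smallest it can give. The 8 pairs come from 4 library numbers whose libraries deviate together, and an exact sign-flip by number, added after the data were seen, gave p = 0.125 for Apoe, Hspa1a and Lgr5, the smallest that 4 numbers allow. Of the 16 fits that left out 1 library, 9 called Apoe, and so did the fit without GFP 1 and 4.

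Lpl, the lipase that releases fatty acids from lipoproteins, was the only called gene whose 8 GFP-positive libraries all lay above the 8 GFP-negative ones. Its level was 37.5, 8.2, 7.91 and 41.2 CPM in GFP, 16.7, 6.91, 3.49 and 14.5 CPM in DP, 2.61, 0.367, 1.14 and 3.46 CPM in DN, and 1.26, 0.0259, 0.942 and 3.4 CPM in mScarlet. The margin between DP 3 and DN 4 was thin (log2 fold change 3.53, SE 0.46, adjusted p = 0.0043). Among all tested genes 3 were separated in this way (0.0188%). As many, 3 (0.0188%), had the 8 GFP-positive libraries all below the 8 GFP-negative ones, and none of those was called. Abca1, the pump that loads cholesterol onto apolipoproteins, had a log2 fold change of 3.78 (SE 0.64, adjusted p = 0.0223). Trem2, a lipid-sensing receptor of macrophages, had one of 3.23 (SE 0.54, adjusted p = 0.0222). Fabp5, a fatty acid carrier named here after its values were seen, had one of 2.05 and an adjusted p at the threshold. Lysosomal genes had smaller differences, with 22 of 23 positive, a median of 0.33 and 2 called. Psap, the precursor of the saposins, ranged from 958 to 4599.9 CPM (median 1369) in GFP-positive and from 612 to 1242 CPM (median 834) in GFP-negative libraries, with a log2 fold change of 0.88 (SE 0.18, adjusted p = 0.0453). Hexa, a subunit of beta-hexosaminidase, had a log2 fold change of 1.00 (adjusted p = 0.0473), and it overlaps Tmem202. Without GFP 1 and 4, 6 lysosomal genes were called, with DESeq2 10, with limma voom 4 and without the library number 0. Beyond the rule for named genes, Gm2a, the activator of that enzyme (1.45), and Atp6v1a, a subunit of the proton pump that acidifies lysosomes (0.53), were also called. Atp6v1a was the 1 higher gene whose highest library was in DP (35.6 CPM in DP 1).

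Macrophage markers moved with these genes. All 22 macrophage markers were tested, 22 had a positive log2 fold change (median 2.51) and 3 were called. DESeq2 called 18 of them, limma voom 13, and edgeR 12 without GFP 1 and 4 and 0 without the library number. Their summed level was 3036 to 38909.9 CPM in GFP, 3356 to 11825 in DP, 1212 to 5422 in DN and 1395 to 3833 in mScarlet, and it was higher in the GFP-positive library in 8 of 8 pairs, with Apoe as without it. In number 4 of GFP and DN the sum without Apoe was close, at 1116 and 1002 CPM, and 8 of the 22 markers were lower in GFP 4, among them Adgre1 (0.561 against 2.55 CPM) and Mrc1 (1.90 against 11.3 CPM). None of the 22 was at 0 counts over either side, and Ptprc, a marker of all leukocytes, was at 0.205 to 17.2 CPM. Cd68, a lysosomal membrane protein of macrophages, was at 40.5 to 576 CPM (median 89.0) in GFP-positive and 17.5 to 63.7 CPM (median 26.5) in GFP-negative libraries (log2 fold change 1.92, SE 0.38, adjusted p = 0.0408). Cd163, a haemoglobin scavenger receptor, had a log2 fold change of 5.04 (SE 1.03, adjusted p = 0.0453). Apoe belongs to the same list. The growth factor receptor Csf1r (2.65, adjusted p = 0.0745) and the complement subunit C1qa (2.71, adjusted p = 0.0811) missed the threshold. Without GFP 1 and 4 the median was 2.61. The part of these markers in the results for lipid, lysosomal and chemokine genes was not tested.

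Among the 12 called genes with the largest differences of those with a mean of at least 10 CPM and a rise in all 8 pairs, Timd4, a phosphatidylserine receptor of resident macrophages (log2 fold change 4.93), Gpnmb, a transmembrane glycoprotein of lipid-laden macrophages (4.21), and Cd209f, a C-type lectin (3.93), are also known from macrophages. Timd4 was at 71.8 CPM in GFP 1 and 15.0 in DP 1, and at 0.666 to 2.5 CPM in the other GFP-positive libraries. Gpnmb was more even, at 95.0, 28.3, 24.0 and 48.1 CPM in GFP and 66.2, 22.9, 10.8 and 49.6 CPM in DP, against 0 to 14.3 CPM in the GFP-negative libraries. The lectins Cd209b (5.29) and Cd209g (3.72), noticed after their values were seen, were called as well, and reads of the Cd209 family may be shared between its copies.

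The gene lists took in a minority of the higher genes. Of the 85 higher genes, 19 stood in at least 1 of the 36 gene lists and 66 in none. Lists of markers of other cells held 5 of the 85. The highest library of the 85 genes was GFP 1 for 56, GFP 4 for 28 and DP 1 for 1. The same shares over all tested genes were not counted, so these counts do not tell the called genes from other genes. Lists cover only the genes written into them, so a gene outside every list may still be a marker of another cell type.

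**Figure D3:**
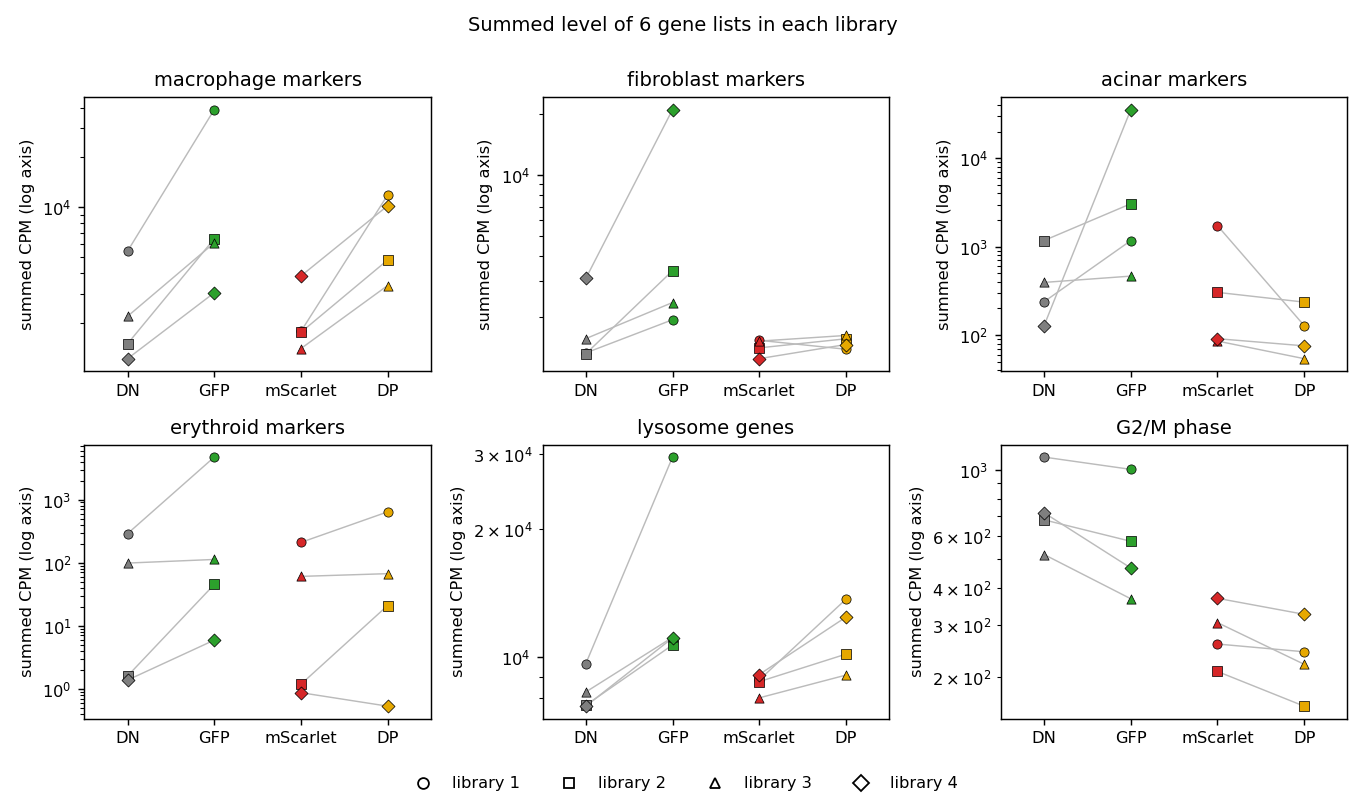
Summed level of 6 gene lists in each library (CPM, log axes), by gate, with lines joining libraries of the same number. Macrophage and lysosome sums were higher in the GFP-positive library of all 8 pairs and the G2/M sum was higher in 0 of 8, while fibroblast, acinar and erythroid sums peaked in single GFP libraries.

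Chemokines and inflammatory factors made up a second group. Of 29 genes of the NF-kB and inflammatory list, 20 were positive (median 0.23) and 4 were called, namely Il6, Ccl7, Saa3 and Ccl2. At an unadjusted p under 0.05 there were 13 of the 29, against 12.2% of all tested genes. Il6, a cytokine of the acute phase, was at 31.8, 3.9, 2.43 and 28.5 CPM in GFP libraries 1 to 4 against 3.11, 1.18, 0.885 and 3.51 CPM in DN. In DP it was at 2.99, 1.07, 0.835 and 2.59 CPM against 1.21, 0.246, 0.177 and 0.582 CPM in mScarlet. The difference held within each number, while GFP-positive and GFP-negative libraries overlapped across numbers (log2 fold change 2.22, SE 0.27, adjusted p = 0.0030). Saa3, an acute phase lipoprotein, had a log2 fold change of 2.80 (SE 0.47, adjusted p = 0.0223) and reached 496 CPM in GFP 1. Ccl2, a monocyte chemokine, had one of 1.93 (SE 0.40, adjusted p = 0.049), with 2 of the 16 fits without 1 library calling it. The NF-kB subunits themselves had small differences that were not called, such as -0.05 for Rela and -0.01 for Relb.

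Outside that list, Cxcl12, the ligand of Cxcr4, had a log2 fold change of 4.48 (SE 0.63, adjusted p = 0.0074). It was at 231 CPM in GFP 4 and 1.3 to 8.02 CPM in the other GFP libraries, at 9.1 in DN 4 and 0 to 0.501 CPM in the other DN libraries. In DP it was at 0.0484 to 2.44 CPM and in mScarlet at 0 to 0.0659 CPM, so 1 number carried most of its reads. Cxcl13, a B cell chemokine, had a log2 fold change of 4.33 (adjusted p = 0.0358), and Cxcl14, an orphan chemokine, one of 3.94 (adjusted p = 0.0032). Other genes of the largest differences were Fgfr1, a fibroblast growth factor receptor (4.03, overlapping Gm16159), Scamp5, a membrane trafficking protein (3.87), and Slc7a2, a cationic amino acid transporter (3.67). H2-Q6, a class I molecule with near-identical neighbours, was the 1 called gene of 16 in the MHC class I list (2.06, adjusted p = 0.0473), whose median was -0.02. Lyz1, the lysozyme counted in the classical PDAC list and near-identical to the macrophage gene Lyz2, was the 1 called gene of 24 there (2.77, adjusted p = 0.0438), and the median of that list was -0.04, or 0.04 without GFP 1 and 4.

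Fibroblast markers had their highest level in GFP 4. Of 20 tested, 19 were positive (median 1.62) and 2 were called, Cxcl12 and Il6, against 10 each with DESeq2 and limma voom and 0 without the library number. The summed level was 21070.2 CPM in GFP 4 and 1933 to 3375 CPM in the other GFP libraries, 3094 CPM in DN 4, and 1242 to 1617 CPM over DP and mScarlet. Mmp2, a gelatinase of stromal cells, was called in the mesenchymal list (2.81, SE 0.44, adjusted p = 0.0143), of which 15 of 20 were positive with a median of 0.56. It was at 820.5 CPM in GFP 4 and at 6.32 to 75.0 CPM in the other GFP-positive libraries, against 1.55 to 85.1 CPM in GFP-negative ones. Col1a1, the main fibrillar collagen chain, missed the threshold (1.63, SE 0.37, adjusted p = 0.0695). Without GFP 1 and 4 the fibroblast list had 18 of 20 positive, 2 called and a median of 1.41. The part of fibroblast RNA in the calls of Igf1, Cxcl12, Il6 and Mmp2 was not tested.

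Other marker lists had no called member. Pericyte markers had 10 of 10 positive (median 1.00, with Acta2 at 0.72 and Pdgfrb at 2.53), and endothelial markers 10 of 14 (median 1.06, with Vwf at 2.96 and Eng at 1.54). Dendritic cell markers had 9 of 11 positive (median 0.44, with H2-Ab1 at 0.53 and Cd74 at 0.44), erythroid markers 5 of 6 (median 2.28, with Hbb-bt at 2.73 and Hba-a1 at 2.31) and islet markers 3 of 5 (median 3.00, with Ppy at 3.84 and Scg2 at -4.34). Neutrophil markers had 3 of 12 positive (median -0.17, with Ngp at 1.68 and S100a8 at -0.33), and lymphocyte markers 6 of 15 (median -1.39, with Il7r at 4.82 and Klrd1 at -4.36). Acinar markers had 20 of 25 positive (median 0.37, with Rbpjl at 3.41 and Ctrc at 3.04), all 25 in GFP vs DN but 2 in DP vs mScarlet. Without GFP 1 and 4 the acinar median was -0.19, with 10 of 25 positive, and the neutrophil median was 0.01.

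Hspa1a, the stress-inducible HSP70 chaperone, was the only called gene of 22 heat shock chaperones. The heat shock factor Hsf1 binds arrays of inverted GAA units upstream of such genes, so the 250 bases before the start site were read from RefSeq (GRCm38.p6). An array of 3 units had no match in the window of Hspa1a. The shorter pattern of 2 units marked below is only part of such an array and was not shown to bind Hsf1. Hspa1a lies on the minus strand of chromosome 17 (34969359 to 34972156), and its window is chr17:34972157-34972406. Its near-identical copy Hspa1b is shown beside it, with the window chr17:34959239-34959488 on the minus strand, because reads may be shared between the copies. Capitals mark the match to GAANNTTC, a palindrome and so the same on both strands, which lies at the same distance from the start site in both.

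Hspa1a: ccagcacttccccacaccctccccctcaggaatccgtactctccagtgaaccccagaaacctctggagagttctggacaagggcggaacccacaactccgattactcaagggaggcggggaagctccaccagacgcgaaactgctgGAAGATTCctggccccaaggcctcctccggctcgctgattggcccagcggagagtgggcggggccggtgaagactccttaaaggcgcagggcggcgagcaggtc
Hspa1b: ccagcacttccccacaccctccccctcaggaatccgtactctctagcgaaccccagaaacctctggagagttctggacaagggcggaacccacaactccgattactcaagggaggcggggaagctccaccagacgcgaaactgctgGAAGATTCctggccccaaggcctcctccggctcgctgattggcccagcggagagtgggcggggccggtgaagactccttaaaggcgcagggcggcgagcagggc

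The windows shared 247 of 250 bases, yet the counts of the copies differed. Hspa1a was at 195, 57.9, 105 and 319 CPM in GFP libraries 1 to 4 and at 29.2, 22.7, 38.6 and 26.2 CPM in DN. In DP it was at 62.6, 27.1, 57.1 and 47.7 CPM, and in mScarlet at 20.7, 21.5, 25.5 and 30.4 CPM. Each GFP-positive library exceeded its partner, while DP 2 fell below DN 1 and 3 and mScarlet 4 (log2 fold change 1.64, SE 0.31, adjusted p = 0.0358). The mean difference over pairs was 1.58 ± 1.06 on the log2(CPM + 1) scale (SD, n = 8; exact two-sided sign-change permutation p = 0.0078, the smallest possible). Hspa1b ranged from 126 to 675 CPM and was higher in 8 of 8 pairs, with a log2 fold change of 0.71 (SE 0.21) that was not called (adjusted p = 0.173). The 2 copies summed differed by 0.87 ± 0.83 on the log2(CPM + 1) scale (SD, n = 8). Hspa1a was called in 5 of the 16 fits without 1 library and, with a log2 fold change of 1.16, in that without GFP 1 and 4 (adjusted p = 0.0064). Of the 21 chaperones other than Hspa1a, 13 were positive and the median was 0.09, with values such as Hsph1 (0.13), Hsp90aa1 (0.09), Dnajb1 (0.20) and Hsp90ab1 (-0.12).

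The pattern GAANNTTC occurred in 5.24% of the 15859 windows of tested genes and in 8 of the 85 windows (9.41%) of genes called higher. It was searched after a longer pattern of 3 such units in alternating orientation, each spaced by 2 bases, held by 0.397% of all windows and 2 of 85, had no match in Hspa1a. Immediate-early genes, another stress-responsive group, had 25 of 26 positive (median 0.27) and none called. At an unadjusted p under 0.05 there were 12 of the 26, against 12.2% of all tested genes. Klf2, a transcription factor of this list, came closest (1.02, SE 0.21, adjusted p = 0.0505), with 35.7 to 441 CPM in GFP-positive and 19.8 to 141 CPM in GFP-negative libraries, followed by Fos (0.41).

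WNT targets were counted next, read against 0.583% of all tested genes called and 12.2% at an unadjusted p under 0.05. Of 35 WNT/beta-catenin targets in the files 29 were tested, 17 were positive and 0 were called, with a median of 0.15, and 6 had an unadjusted p under 0.05. The summed level of the list, which follows its most abundant members, was higher in the GFP-positive library of 8 of 8 pairs. Over single members, 14 of the 29 were positive in GFP vs DN (median -0.01) and 17 in DP vs mScarlet (median 0.05). The sums of the WNT ligand, receptor, core pathway and secreted inhibitor lists were higher in 4, 5, 5 and 3 of 8 pairs. DESeq2 called 3 of the 29 targets, limma voom 2 and edgeR without the library number 0. Lgr5, a receptor for R-spondins and a classic WNT target of stem cells, had 366 counts in all. Libraries 1 to 4 held 156, 21, 80 and 28 counts in GFP, 0, 24, 34 and 3 in DP, 0 in every DN library, and 11, 0, 9 and 0 in mScarlet. With the DN group as a whole set to a floor of 3 counts, the level pooled over the GFP libraries was at least 102-fold higher than in DN, and at least 64.2-fold higher without GFP 1. These are ratios of pooled counts and not bounds for each library. All 4 GFP libraries stood above all 4 DN libraries, whereas DP 1 had fewer counts than mScarlet 1. The log2 fold change of 5.20 (SE 1.67) depends on a prior count and was not called (adjusted p = 0.203), nor by limma voom (adjusted p = 0.101), while DESeq2 called it (adjusted p = 0.0042). The mean difference over pairs was 0.47 ± 0.50 on the log2(CPM + 1) scale (SD, n = 8), higher in 7 of 8 pairs (exact two-sided sign-change permutation p = 0.0234). These 3 genes, Apoe, Hspa1a and Lgr5, were named with earlier results of these data known, so their p-values are not independent evidence. Reads of Lgr5 and of the overlapping A930009A15Rik cannot be told apart without strand.

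Other targets were sparse. Tnfrsf19, noticed after its values were seen, had 1184 counts in GFP, 115 in DP, 23 in mScarlet and 0 in DN, and 9 libraries were at 0. The level pooled over the GFP libraries was at least 422-fold higher than in DN against the same floor, and at least 241-fold higher without GFP 4, which held 676 of the counts. edgeR did not call it (adjusted p = 0.303), nor did DESeq2 (adjusted p = 0.0939), while limma voom did (adjusted p = 0.0288). Ascl2, a stem cell factor, had a log2 fold change of 4.30 at no more than 0.79 CPM (adjusted p = 0.231). The feedback inhibitor Axin2 had 218 counts in GFP-positive and 54 in GFP-negative libraries, with 6 libraries at 0 (log2 fold change 1.50, adjusted p = 0.788). Nkd1, which blocks Dishevelled, had 3767 and 870, of which 2759 came from GFP 4 (1.56, adjusted p = 0.617). Lef1, a partner of beta-catenin, had 66 and 200 (-1.90, adjusted p = 0.692). Notum, which strips the lipid from WNT proteins, had 71 counts, 62 of them in mScarlet 3, and the factor Sp5 had 2, so neither was tested. Rnf43, the ligase that removes Frizzled receptors, was at 0.841 to 17.9 CPM in GFP-positive and 2.09 to 13.4 CPM in GFP-negative libraries (0.32, adjusted p = 0.852), and it overlaps 1110028F11Rik.

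Of the lists of genes that make, receive or block the signal, edgeR called no member, while DESeq2 called 2 members of the receptor list and 2 secreted inhibitors and limma voom 3 inhibitors. Lgr5, which stands in the target list too, was among those 2 members of the receptor list. Porcn was at 19.1 to 51.4 CPM in GFP-positive and 24.2 to 76.0 CPM in GFP-negative libraries (log2 fold change -0.19, SE 0.16, adjusted p = 0.69), and its reads may include any Porcn sequence of the construct. Wls was at 64.1 to 115 and 52.4 to 98.7 CPM (0.15, SE 0.14, adjusted p = 0.73). WNT ligands had 8 of 12 tested positive (median 0.25), with Wnt10a at -0.23 and Wnt2 at 1.10. Receptors and co-receptors had 12 of 18 positive (median 0.18), with Rspo1, an R-spondin placed in that list, at 4.39. The core pathway had 13 of 24 positive (median 0.03), with the kinase Gsk3b at 0.40 and the repressor Tcf7l1 at 1.63. Secreted WNT inhibitors had 5 of 5 tested positive (median 2.03, but -0.08 without the filter on low counts). Sfrp4, which binds WNT proteins, missed the threshold (3.33, SE 0.70, adjusted p = 0.0536), with 181 CPM in GFP 4, 16.7 in DN 4 and at most 8.39 CPM elsewhere, and Dkk3 was at 4.91 (adjusted p = 0.137). Both were highest in the library with the highest fibroblast sum.

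The window of Igf1 is shown because Igf1 had the smallest p of all tested genes and the window held a match to the letters of a TCF/LEF site. It is chr10:87860861-87861110 on the plus strand, before an annotated start site that lies inside the gene, with the CTTTGAA match, 186 bases before the start site, in capitals.

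Igf1: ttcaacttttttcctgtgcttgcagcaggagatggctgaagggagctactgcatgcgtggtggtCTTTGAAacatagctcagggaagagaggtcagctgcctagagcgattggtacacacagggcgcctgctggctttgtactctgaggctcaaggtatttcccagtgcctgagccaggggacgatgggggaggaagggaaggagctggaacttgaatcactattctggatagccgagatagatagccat

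CTTTGAA or CTTTGAT on either strand occurred in 5.85% of all windows and in 8 of the 85 windows (9.41%) of genes called higher. GAGGAAGT, a site of the myeloid factor PU.1, occurred in 2.62% of all windows and in 3 of these 85 (3.53%). The 85 windows belong to 68 of the genes called higher, some of which have more than 1 start site. A match is a description of these bases and not a site, and Lgr5 is not among the windows used here.

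Proliferation and biosynthesis lists had mostly negative differences with no gene called. Of 23 G2/M genes 20 were negative (median -0.28, against -0.01 over all tested genes), and their summed level was lower in the GFP-positive library of each of the 8 pairs. It ran from 367 to 1004 CPM in GFP, 518 to 1105 in DN, 159 to 325 in DP and 208 to 368 in mScarlet. Cenpa, the centromeric histone, was at -0.53 (adjusted p = 0.318) and Ube2c, a mitotic ubiquitin enzyme, at -0.43. DNA replication genes had 23 of 26 negative (median -0.21), also with a lower sum in all 8 pairs, with Mcm2, a helicase subunit, at -0.34 (adjusted p = 0.323) and Rfc3 at -0.23. MYC and ribosome biogenesis genes had 18 of 22 negative (median -0.16, with Pes1 and Nop2 at -0.21 and -0.22). Cholesterol and fatty acid synthesis genes had 23 of 27 negative (median -0.18), with Fdps, an enzyme of isoprenoid synthesis, at -0.38 (adjusted p = 0.182). At an unadjusted p under 0.05 these 4 lists had 3, 1, 4 and 8 genes, against 12.2% of all tested genes. Without GFP 1 and 4 the G2/M and DNA replication medians were -0.33 and -0.21.

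The remaining lists had 0 called genes and medians nearer to that of all genes, apart from TGF-beta targets. Those had 15 of 17 positive (median 0.41, with Col1a1 at 1.63 and Tgfbi at 1.98). Glycolysis and hypoxia genes had 6 of 25 positive (median -0.09), with the lactate exporter Slc16a3 at 1.31 and Adm at 0.59. Interferon-stimulated genes had 13 of 26 (median 0.02, with Irf9 at 0.27 and Irf1 at 0.26), the unfolded protein response 12 of 20 (median 0.02, with Asns at -0.35 and Ppp1r15a at 0.34) and p53 targets 13 of 18 (median 0.12, with Plk2 at 0.70 and Cdkn1a at 0.34). YAP targets had 8 of 13 positive (median 0.01, with F3 at -0.25 and Nuak2 at 0.29), and basal-like PDAC genes 6 of 14 (median -0.14, but 0.02 without GFP 1 and 4, with Slc2a1 at -0.23 and Areg at -0.25). Epithelial genes had 11 of 21 (median 0.02, with Spint1 at 2.18 and Rab25 at 0.85), and the respiratory chain 6 of 24 (median -0.07, with Ndufa4 at -0.26 and Cyc1 at -0.11).

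**Figure D4:**
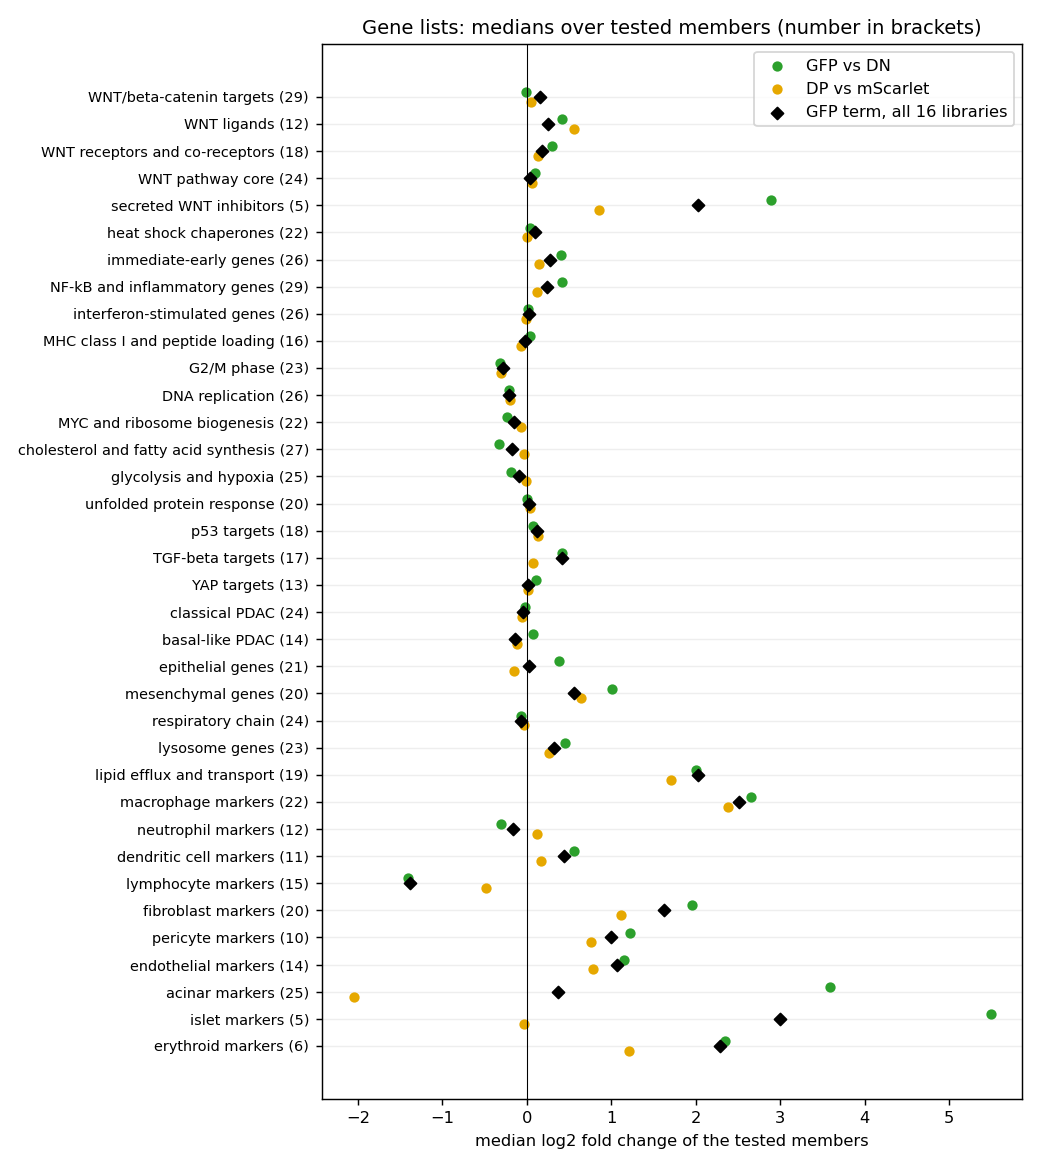
Median log2 fold change over the tested members of each of the 36 gene lists, for GFP vs DN, for DP vs mScarlet and for the GFP term over all 16 libraries, with the number of tested members in brackets. Macrophage, lipid efflux and fibroblast lists lie to the right in both gate comparisons, G2/M and DNA replication lie left of 0 in both, and the acinar list is on opposite sides, at 3.59 and -2.05.

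The 8 lower genes had small differences, except for 1 mast cell gene. Zbtb32, a zinc finger repressor, was at 14.9, 13.0, 16.2 and 18.2 CPM in GFP against 36.6, 14.3, 20.5 and 34.6 CPM in DN, and at 10.9, 7.8, 10.7 and 12.8 CPM in DP against 16.6, 14.0, 19.9 and 17.8 CPM in mScarlet. It was lower in all 8 pairs, by little in number 2 of GFP and DN (log2 fold change -0.71, SE 0.14, adjusted p = 0.0395). Gjb5, a gap junction connexin of epithelia (-0.42, adjusted p = 0.0377), Taf5l, a subunit of histone acetyltransferase complexes (-0.35, adjusted p = 0.0484), and Triobp, an actin-bundling protein (-0.32, adjusted p = 0.0418), were also lower in all 8 pairs. Triobp was at 134 to 168 CPM in GFP-positive and 167 to 215 CPM in GFP-negative libraries, and it overlaps Gm10865 and Mir6956. Taf5l, Triobp and Gjb5 were called in 0, 2 and 3 of the 16 fits without 1 library.

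The other 4 lower genes fell outside the rule for named genes, and 3 of them were looked up after their values were seen. Tpsb2, a mast cell tryptase with near-identical copies, had 4 counts over the GFP-positive libraries, while DN held 624, 22, 480 and 63 and mScarlet 0, 64, 177 and 0 (adjusted p = 0.0196). Acan, the proteoglycan aggrecan, overlaps Gm26633 and was lower in 7 of 8 pairs (log2 fold change -1.05, adjusted p = 0.0223), and so was Tmsb10, an actin-sequestering peptide (-0.52, adjusted p = 0.0466). Over all tested genes 276 (1.73%) were lower in all 8 pairs and 435 (2.73%) higher, against 5 of the 8 and 74 of the 85 called genes, for which the same values entered the call.

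GFP vs DN and DP vs mScarlet, the parts of the pooled comparison, share no library. In GFP vs DN, fitted with 1 mean per gate and the library number, 11 genes were called (0.0689%), 10 higher (0.0626%) and 1 lower (0.00626%). They were Pltp, Igf1, Ccl7, Rab3il1, Slco2b1, Il6, Hspa1a, Rftn1, Slc22a17, Cbr2 and, lower, Tmsb10. The count was 1 without any of the DN libraries, 2, 1 and 59 without GFP 1, 3 and 4, 3, 3 and 5 without DP 1, 2 and 3, and 2 without GFP 1 and 4. Without the library number it was 0, with 1602 at an unadjusted p under 0.05. In DP vs mScarlet edgeR called 0 genes (0%), with 728 at an unadjusted p under 0.05 and a smallest adjusted p of 0.118, while DESeq2 called 194 and limma voom 0. Of the same 15963 tested genes, 2186 had such a p in GFP vs DN and 1953 (12.2%) for the pooled GFP term. edgeR called 1 gene without mScarlet 4, without DP 3 or without GFP 1 and 4. The 85 genes called higher were positive in both, with medians of 2.88 and 2.29, and 63 had the larger value in GFP vs DN. Since all 16 libraries chose these 85, this describes them and tests nothing.

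Whether the difference depended on mScarlet was tested by the interaction. edgeR called 0 genes (0%), with 771 at an unadjusted p under 0.05 and a smallest adjusted p of 0.968, and limma voom called 0, whereas DESeq2 called 56. Hspa1a had a log2 fold change of 2.37 (SE 0.35, adjusted p = 0.0317) in GFP vs DN and 0.93 (SE 0.33, adjusted p = 1) in DP vs mScarlet, a difference of -1.44 (adjusted p = 0.968). Apoe had 2.89 (SE 0.77) and 2.94 (SE 0.78), and Pltp 3.50 (SE 0.34) and 2.19 (SE 0.32).

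**Figure D5:**
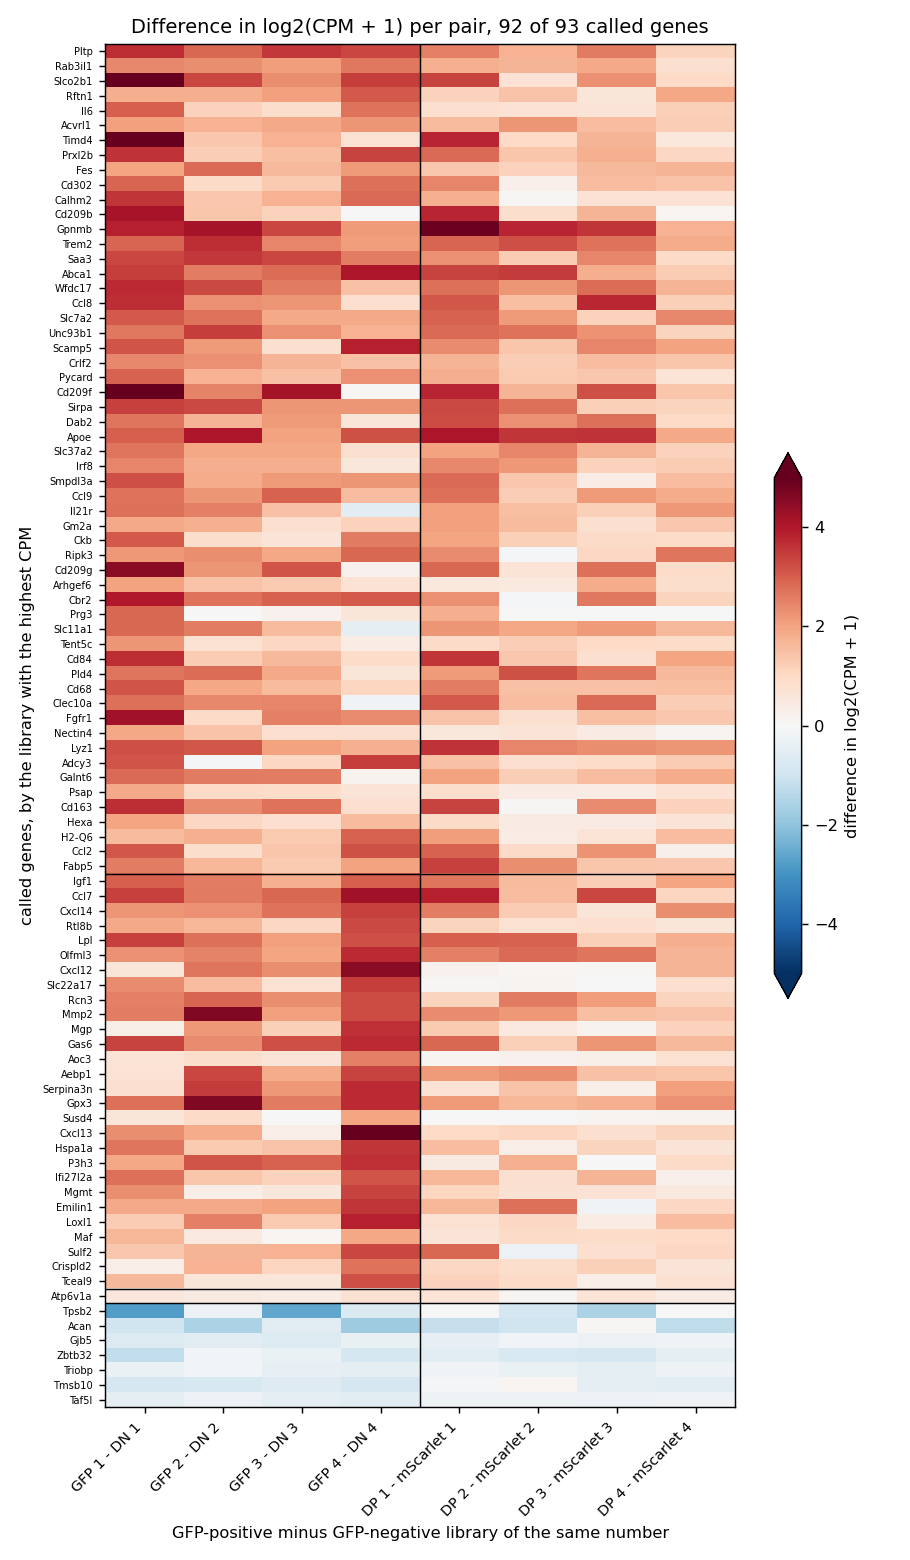
Difference in log2(CPM + 1) between the GFP-positive and the GFP-negative library of the same number, for 92 of the 93 called genes (rows, grouped by direction and by the library with the highest CPM) and the 8 pairs (columns), with colours capped at 5 either way. Genes that peak in GFP 1 (upper block, 56 genes) and those that peak in GFP 4 (second block, 28 genes) are mostly positive across the pairs, more strongly in the 4 pairs of GFP and DN.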

How the data were processed

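Bulk RNA from 4 sorted gates of orthotopic tumours was sequenced in 16 libraries, from low-input, PCR-amplified full-length cDNA read as paired ends of 100 bases, per the labels' protocols. Deposited values are raw counts, 1 whole number per gene and library, and the submitters' processing notes name STAR, DESeq2 1.24.0 and GRCm38/mm10 without roles. The sources used here name neither the read counter nor the strand setting. Of 24467 gene rows, 24437 matched a symbol in the RefSeq table.

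Counts were fitted with edgeR 4.0.16 in R 4.3.3 (TMM scaling, filterByExpr by gate, quasi-likelihood test, Benjamini-Hochberg adjustment at 0.05 over all tested genes), with GFP status, mScarlet status and library number as additive terms, and with gate means for GFP vs DN, DP vs mScarlet and the interaction. The block has support in the data: same-numbered libraries had correlations of 0.11 to 0.71 (median 0.38, 24 pairs) in their deviations from gate means. The labels do not say that a number marks 1 tumour, nor that the libraries came from separate cultures or sorts, so p-values measure the spread between these libraries. Levels are CPM on TMM-scaled library sizes, and a gate with 0 counts of a gene was set to a floor of 3 counts over the gate. Pairs were tested by exact sign changes of log2(CPM + 1), with a pseudocount of 1. No libraries of a gate were alike within sampling noise.

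Named genes were Lgr5, Hspa1a, Apoe and 8 WNT genes; per direction, the 12 called genes of largest change and the 5 of smallest adjusted p, with a mean of at least 10 CPM on the higher side and 1 sign in all 8 pairs; and in each of 36 gene lists up to 4 called members, or the 2 of smallest p. Some genes that the rule or the calls take in are not reported here. Members and lists were chosen with earlier results of these data known. On simulated data with 200 genes changed, the additive fit recovered 72% of those changed by 1 log2 unit and 98% of those changed by 2, with 5 unchanged genes called. The simulated counts were independent between libraries and held no effect of library number or mScarlet status, and the changed genes had means above 5 CPM. These shares therefore check the fit itself and do not give its power or error rate in the real libraries. Alternatives were no block, a block within mScarlet status, RLE scaling, DESeq2 1.42.0, limma 3.58.1 (voom), other filters, no mScarlet term, and leaving out libraries. Tables were made with Python 3.11.15 and pandas 2.3.3.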

Additional observations from a re-analysis of the deposited data

Results flagged for a closer look

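In each gate of 4 libraries, the highest or lowest library was compared with the others on the log2(CPM + 1) scale by Dixon's ratio. Of 253 series of named genes and list sums, 22 had a library that stood apart. Chance marks about 1 in 20 such series. The log2 scale was adopted after linear CPM, on which 58 series had such a library, had been seen.

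DN library 1 stood apart for 6 genes, all higher there than in the other DN libraries: Axin2 at 0.369 CPM (others 0.0216 to 0.0664), Slco2b1 at 0.946, Abca1 at 3.90, Slc7a2 at 8.48, Rab3il1 at 26.5 and Cd163 at 3.01 CPM. The same library had the highest macrophage sum of its gate, at 5422 CPM, whose part in these values was not tested. mScarlet library 4 stood apart for 5 genes, with Axin2 at 0.022 CPM (others 0), Cxcl13 at 0.351, Ccl7 at 10.1, Tnfrsf19 at 0.242 and Tmsb10 at 1696 CPM (others 716 to 792), and it too had the highest macrophage sum of its gate, at 3833 CPM.

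In GFP library 1, Timd4 was at 71.8 CPM (others 0.975 to 2.35), Slc7a2 at 78.7 and Gm2a at 790.2 CPM (others 144 to 151). In GFP library 4, Mmp2 was at 820.5 CPM (others 47.0 to 75.0) and the pericyte sum at 169 CPM (others 54.0 to 65.6). DP library 4 had Cxcl12 at 2.44 CPM and Tnfrsf19 at 1.30 CPM (others 0). Single libraries stood apart for Sfrp4 in DN 4 (16.7 CPM), Tpsb2 in GFP 3 (0.0491 CPM, others 0), Saa3 in DP 2 (3.80 CPM, lower than the others at 16.8 to 22.2) and the neutrophil sum in mScarlet 2 (232 CPM, lower than the others at 603 to 697).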

How the results depend on the processing

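The number of genes called for GFP status (93) was 0 with no replicate block, 247 with a replicate block within mScarlet status, 783 with DESeq2, 462 with limma voom and 17 without the mScarlet term, and 25 to 210 when 1 library was left out. It stayed within 1.5 times with RLE scaling (98), no filter on low counts (108), a filter at a mean of 1 CPM (116) and without GFP 1 and 4 (135). The cause of these differences was not tested. GFP vs DN (11) gave 0 with no replicate block, 98 with the block within mScarlet status, 768 with DESeq2, 298 with limma voom, 31 with no filter, 2 without GFP 1 and 4, and 1 to 59 when 1 library was left out. DP vs mScarlet (0) gave 27 with the block within mScarlet status, 194 with DESeq2, 1 without GFP 1 and 4, 0 with no replicate block and 0 to 1 when 1 library was left out. The interaction (0) gave 56 with DESeq2 (26 higher, 30 lower) and 0 in every fit that left out 1 library. For a part of the genes given here, the GFP term was followed through all alternatives, with no replicate block among them. Of these values 972 kept their side of the threshold, 348 lost the call, 25 gained it and 0 reversed direction. Other genes of the text, such as Rspo1, Ascl2, Gsk3b and Tcf7l1, were not followed in this way. With no replicate block, exact permutations within mScarlet status gave p = 0.0049 for Lgr5, 0.00082 for Hspa1a and 0.0012 for Apoe, on mean differences of 0.47, 1.58 and 3.17. Exact permutation of the signs by library number, a choice made after seeing the data, gave p = 0.125 for each of these 3 differences, the smallest possible with 4 numbers. Without any 1 library and its pair the mean differences were 0.34 to 0.56, 1.30 to 1.76 and 3.05 to 3.35. Of the list medians, 863 moved by less than the SD of the list's own median difference between paired libraries, and 37 moved by more. That SD was wide for some lists, so a shift below it need not be small. For acinar markers it was 3.19, and their median went from 0.37 to 2.24 with limma voom and to -0.19 without GFP 1 and 4. The basal-like PDAC median was 0.07 without DN 3 and 0.30 without mScarlet 1. The WNT targets Axin2, Lef1, Notum, Sp5 and Lgr5 had 272, 266, 71, 2 and 366 counts over 16 libraries, of which Notum and Sp5 were not tested.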
